A study of Mus musculus with 204 samples.

Results

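Fibronectin, the matricellular proteins periostin and thrombospondin 1, the microfibril protein fibrillin 1, the gelatinase MMP9 and its inhibitor TIMP1 were followed across 21 tissues of obese and lean mice. The 6 genes (Fn1, Postn, Thbs1, Fbn1, Mmp9 and Timp1) were taken by name from a table of 13153 genes, and all 6 were found. They were chosen with earlier results of these data known. Counts of them set beside shares of all genes are therefore a description and not a test. The mice were wild-type C57BL/6J males, an inbred strain that becomes obese on fatty food. Diet-induced obese (DIO) mice had eaten a diet with 60% fat for 10 weeks, and lean mice had stayed on chow with 13.1% fat. Per the labels the fatty diet began at 4 weeks of age, although the mice are also said to have been 6 to 12 weeks old on arrival, so their age was not settled. RNA came from frozen pieces of whole tissue, in which fewer cells of a type and less RNA per cell cannot be told apart. Each tissue had 5 DIO and 5 lean libraries, except subcutaneous fat (3 DIO and 5 lean), mesenteric fat (4 DIO and 3 lean) and the extensor digitorum longus (EDL) muscle (5 DIO and 4 lean).

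Fibronectin is a large glycoprotein that cells assemble into fibrils through integrins, and the liver secretes a soluble form into plasma. Periostin and thrombospondin 1 are matricellular proteins, which bind matrix and receptors and change how cells behave more than they carry load. Periostin binds collagen and integrins, and thrombospondin 1 binds CD36 and CD47 and can activate latent TGF-beta. Fibrillin 1 builds the microfibrils that store TGF-beta and carry elastin. MMP9 cleaves denatured collagens and type IV collagen, and TIMP1 blocks MMP9 and other metalloproteinases. In adipose tissue these proteins form part of the pericellular matrix that is rebuilt when fat cells enlarge.

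The median library total was 20.7 M reads (M, 1e6 reads), and totals lay between 6.58 and 129.7 M. Values are CPM, reads of a gene scaled to that unit of library total. Each change is a log2 ratio, DIO over lean, with its standard error after ±; limma was run on log2(CPM + 1), and on that scale the change of a weakly expressed gene comes out too small. A gene was tested in a tissue where its mean over both diets was at least 10 CPM, p was adjusted over all genes tested there by the Benjamini-Hochberg method, and a call is an adjusted p under 0.05. The median of all genes moved by over 0.1 in 8 tissues, by 0.40 in mesenteric, 0.25 in retroperitoneal and 0.17 in epididymal fat. Printed changes and adjusted p were therefore taken after each library was rescaled by its median ratio within the tissue. Nothing in the labels says that libraries came from separate mice, so the p-values measure only the spread between libraries. In 10 libraries a marker of another tissue was high or the tissue's own marker was missing. Lymphoid Cr2 was at 268.8 CPM in mesenteric DIO 2 and at 147 and 146 CPM in subcutaneous lean 2 and lean 3. Lymphoid Cd2 was at 35.2 CPM in retroperitoneal DIO 3. Tnnc2 of fast muscle was at 77.1 CPM in retroperitoneal lean 2, and at 329.8 and 158 CPM in brown fat DIO 5 and lean 2. Adrenal DIO 1, DIO 2 and lean 1 had 0.173, 0.0833 and 0 CPM of Hsd3b1, a steroid-making enzyme of the adrenal cortex, while the 7 remaining adrenal libraries had 4240 to 12653 CPM.

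The genes lie on 4 chromosomes in GRCm38, as GENCODE M21 annotates them. Fn1 spans chr1:71585520-71653200 on the minus strand, Postn chr3:54361109-54391037 on the plus strand and Thbs1 chr2:118111876-118127133 on the plus strand. Fbn1 spans chr2:125300594-125507993 on the minus strand, Mmp9 chr2:164940780-164955850 on the plus strand and Timp1 chrX:20870166-20874735 on the plus strand. Timp1 lies inside Syn1, a neuronal gene on the other strand. The library kit kept strand, but whether the counting used it is not given in the sources used here. In cerebral cortex Syn1 had 568 to 898 CPM in DIO and 620 to 887 CPM in lean libraries, where Timp1 had 0.0741 to 0.239 CPM in DIO and 0.212 to 0.339 CPM in lean libraries. Fn1, Thbs1 and Fbn1 each overlap a minor gene on the other strand (Apol7d, Gm29233 and Gm9913).

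Promoters are shown for Postn, Timp1 and Fbn1, the members with an entry in the RefSeq promoter table, because all of them rose together in epididymal fat (values below). Each run holds 250 bases before a transcription start and 50 after it, 5′ to 3′ on the gene's own strand, from RefSeq's GRCm38.p6. Capitals mark matches to motifs searched on both strands: the AP-1 motif is TGANTCA and its variant searched here is TGAGTAA. The TATA box was searched as TATAAA and the GC box as GGGCGG, while the PU.1 core was searched as GAGGAA; no match overlaps another.
Postn, chr3:54360857-54361156, plus strand: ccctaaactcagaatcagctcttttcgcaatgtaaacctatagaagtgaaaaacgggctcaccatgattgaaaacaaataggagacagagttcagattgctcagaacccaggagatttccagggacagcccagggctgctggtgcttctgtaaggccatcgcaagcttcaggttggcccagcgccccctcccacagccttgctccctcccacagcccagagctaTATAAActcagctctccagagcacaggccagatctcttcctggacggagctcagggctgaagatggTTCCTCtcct
Timp1, chrX:20869916-20870215, plus strand: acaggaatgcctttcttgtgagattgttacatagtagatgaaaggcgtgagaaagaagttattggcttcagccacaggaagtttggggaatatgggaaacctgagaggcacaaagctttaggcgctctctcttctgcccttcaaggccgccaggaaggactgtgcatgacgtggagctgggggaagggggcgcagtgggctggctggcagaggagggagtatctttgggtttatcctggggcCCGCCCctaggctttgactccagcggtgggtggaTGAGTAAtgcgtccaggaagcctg
Fbn1, chr2:125506389-125506688, minus strand: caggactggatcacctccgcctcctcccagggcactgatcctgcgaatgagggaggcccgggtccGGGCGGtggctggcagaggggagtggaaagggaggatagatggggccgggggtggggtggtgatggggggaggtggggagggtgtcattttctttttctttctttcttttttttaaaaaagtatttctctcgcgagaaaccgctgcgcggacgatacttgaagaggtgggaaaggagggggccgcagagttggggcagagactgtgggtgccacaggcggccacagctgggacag
The Postn window holds a TATA box that starts 26 bases before the start site and a PU.1 core on the other strand. The Timp1 window holds a GC box on the other strand 8 bases before the start and the AP-1 variant 26 bases after it. The Fbn1 window holds a GC box 185 bases before its start, which lies 1555 bases from the start that GENCODE gives. None of these windows holds the AP-1 motif. Of 32851 promoters in the table, 13.6% hold the TATA box, 35.7% the GC box, 28.3% the PU.1 core, 7.81% the AP-1 motif and 2.68% its variant. A match here is a run of letters and not a measured site.

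In lean mice the highest tissue differed between most of the 6 genes, though it was mesenteric fat for both Thbs1 and Fbn1. With all lean libraries counted, it was clear of the next tissue only for Fn1 and Postn. Fn1 averaged 1492 ± 218 CPM in lean liver (SD, n = 5), and the next tissue was mesenteric fat at 309 ± 37.3 CPM (n = 3). Lean epididymal, retroperitoneal and subcutaneous fat followed at 285, 284 and 178 CPM, and brown fat was lowest at 18.4 ± 5.83 CPM. Liver did not overlap its neighbour in this order, whereas the other 19 pairs of neighbours overlapped.

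Postn was highest in lean colon at 238 ± 56.1 CPM, clear of the adrenal at 119.8 ± 21.9 CPM (n = 5 each). From the adrenal down to ileum (72.0 CPM) the neighbours overlapped, with all fat depots between 81.5 and 109 CPM. The brain regions, liver and kidney were lowest, ending with 0.843 ± 0.340 CPM in cerebellum, which lay below midbrain and brainstem without overlap. Thbs1 was highest in lean mesenteric fat, at 82.9 ± 33.5 CPM (n = 3), with colon, kidney and epididymal fat at 76.5, 75.7 and 70.3 CPM beside it. Only liver, the lowest at 1.03 ± 0.456 CPM, was clear of its neighbour, which was brown fat at 2.95 ± 1.23 CPM.

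Fbn1 was highest in lean mesenteric and retroperitoneal fat, at 172 ± 3.42 CPM (n = 3) and 158 ± 39.1 CPM (n = 5). Epididymal fat, soleus, subcutaneous fat, red gastrocnemius, heart and adrenal followed between 100.5 and 51.8 CPM, and a gap then parted the adrenal from colon at 24.6 CPM. Lean liver, the top tissue for Fn1, was the lowest for Fbn1 at 2.98 ± 0.244 CPM. Timp1 was low nearly everywhere: lean adrenal averaged 21.4 ± 13.3 CPM, every other lean tissue lay between 0.0965 CPM in liver and 3.18 CPM in mesenteric fat, and all 20 pairs of neighbours overlapped. The adrenal overlapped mesenteric fat only through adrenal lean 1, which lacks Hsd3b1 and had 0.451 CPM of Timp1. Other lean adrenal libraries had at least 17.2 CPM, against at most 6.47 CPM in lean mesenteric fat. Mmp9 was highest in lean retroperitoneal fat at 19.5 ± 6.86 CPM and lowest in soleus at 0.433 ± 0.0279 CPM (n = 5 each), and again all neighbours overlapped. The highest tissue mean was 81.03 times the lowest for Fn1, 282 times for Postn, 80.7 times for Thbs1, 221 times for Timp1, 45.0 times for Mmp9 and 57.6 times for Fbn1.

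**Figure D1:**
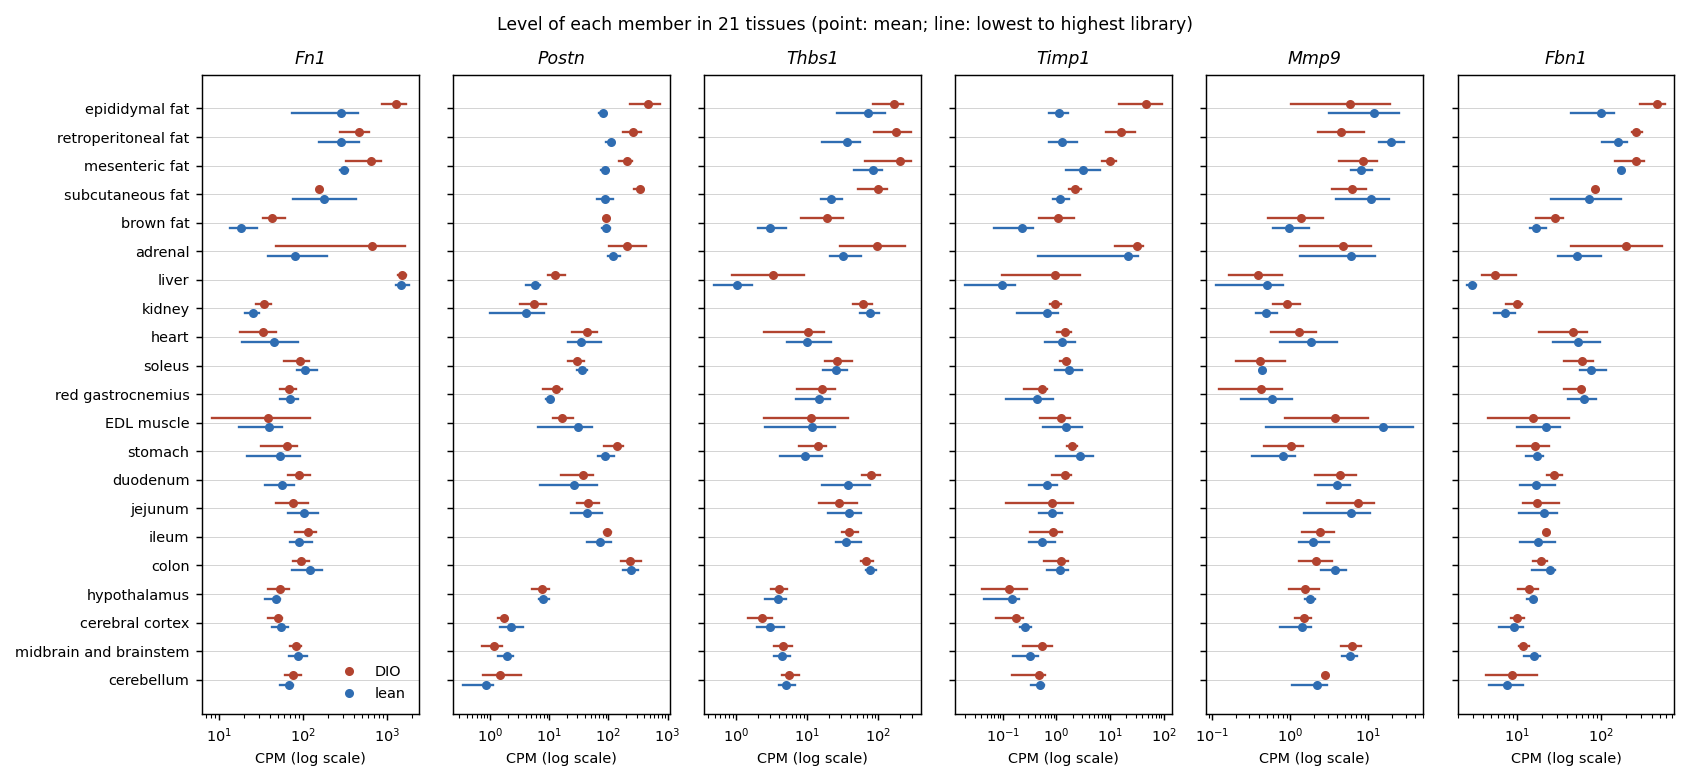
Level of each gene in CPM (log axis) in DIO (red, above) and lean (blue, below) libraries of 21 tissues; points are means, lines run from the lowest to the highest library, and a library with no read is drawn at 0.02 CPM. Fn1 peaks in liver with both diets (DIO 1525 and lean 1492 CPM), while Postn, Timp1 and Fbn1 reach their highest DIO mean in epididymal fat.

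Likeness over the 21 lean tissue means, by Pearson correlation of log2(mean CPM + 1) among 3458 genes, is a description of tissues that share their make-up of cells. Postn was most like Srpx (r = 0.90), Col3a1 (0.90) and Dpt (0.89), and Fbn1 most like Fam198b (0.92), Gsn (0.91) and Lamc1 (0.91). Fn1 was most like Fcna (0.84), Ugt1a6b (0.80) and Il6ra (0.80). For Thbs1 the closest were Rhoc (0.85), Itga6 (0.79) and Cenpb (0.79), for Timp1 Ptgis (0.87), Agtr1b (0.85) and Cxcr4 (0.83), and for Mmp9 Ctsk (0.76), Dock11 (0.69) and Kirrel (0.69). Among the members, Postn and Fbn1 were the closest pair (0.62), and Fn1 and Timp1 the least alike (0.04).

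The members that could be tested changed with diet in fat. Of 126 pairs of gene and tissue 72 could be tested, and after rescaling 14 were higher and 1 was lower in DIO; on the deposited scale 15 were higher and 1 was lower. All calls fell in the 5 fat depots, and no member was called in the other 16 tissues, where 0% to 21.8% of all genes tested were called. Fn1 could be tested in 21 tissues, Fbn1 in 17, Thbs1 in 16, Postn in 15, Timp1 in 2 and Mmp9 in 1.

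Epididymal fat, the visceral depot around the testis, had the most calls, and Timp1 changed more than any other member there. All 5 tested members were called higher, against 27.3% of all genes tested there (36.3% on the deposited scale). Timp1 passed the 10 CPM filter only through its DIO libraries (mean 46.8 CPM, against 1.10 CPM in lean), so the filter favoured a rise. Mmp9 did not pass and is outside this count. Timp1 had 93.9, 38.2, 45.7, 41.7 and 14.4 CPM in DIO libraries, against 0.842, 1.61, 1.23, 1.08 and 0.719 CPM in lean libraries. The lowest DIO library thus lay far above the highest lean one. The log2 change was 4.16 ± 0.39 (limma, adjusted p = 3.99e-06), and 5.30 by edgeR on the recovered reads. Syn1, which overlaps it, had 18.3, 8.72, 10.3, 11.8 and 4.26 CPM in DIO libraries, against 0.736, 1.16, 0.938, 1.13 and 0.873 CPM in lean libraries, and its part in the Timp1 result was not tested.

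Postn in epididymal fat had 751, 461, 558, 316 and 232 CPM in DIO libraries and 77.8, 70.2, 85.1, 90.3 and 84.1 CPM in lean libraries. Lean libraries lay close together, and the DIO libraries spread over more than their whole level without touching them. The log2 change was 2.19 ± 0.27 (limma, adjusted p = 3.38e-05). Fbn1 had 537, 293, 570.2, 453 and 444 CPM in DIO libraries, against 84.7, 43.8, 104.6, 144 and 125.5 CPM in lean libraries, again with no overlap. Its log2 change was 2.07 ± 0.28 (limma, adjusted p = 7.77e-05).

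Fn1 in epididymal fat had 1692.5, 866, 1319, 1319 and 1141 CPM in DIO libraries, against 220.4, 74.1, 301, 447 and 381 CPM in lean libraries. The groups did not overlap, and the DIO mean was 1267 ± 301 CPM, beside 1525 ± 112 CPM in DIO liver (SD, n = 5 each). The log2 change was 2.16 ± 0.40 (limma, adjusted p = 0.000755). Thbs1 had 84.5, 201, 183, 223 and 135 CPM in DIO libraries, against 90.1, 60.2, 26.0, 124 and 51.4 CPM in lean libraries. Here DIO 1 fell within the lean range, and the log2 change was 1.14 ± 0.38 (limma, adjusted p = 0.0233). Groups that did not overlap upward made up 29% of all genes tested in this depot, and 4 of the 5 tested members were among them.

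Mmp9, the protease among the members, was not called higher in epididymal fat. It had 2.71, 1.02, 4.94, 18.7 and 1.98 CPM in DIO epididymal libraries, against 7.78, 3.13, 9.02, 24.5 and 14.1 CPM in lean libraries. The groups overlapped, with DIO 3 and DIO 4 above the lowest lean library, and the mean fell short of the 10 CPM needed for the test. With the filter lowered to 1 CPM the log2 change was -1.30 ± 0.59 (limma, adjusted p = 0.0812). Per kilobase of exon, a scale on which genes can be compared, DIO epididymal fat averaged 108 CPM per kb of Fn1, 53.3 of Postn, 52.7 of Timp1, 37.9 of Fbn1, 27.2 of Thbs1 and 1.66 of Mmp9. Lean epididymal fat averaged 24.4 CPM per kb of Fn1, 9.37 of Postn, 1.23 of Timp1, 8.28 of Fbn1, 11.6 of Thbs1 and 3.31 of Mmp9. On average, then, lean epididymal fat held more Mmp9 than Timp1 per kb, and DIO epididymal fat held more Timp1 than Mmp9. Neutrophil markers (5 of 12 written) summed to 8.52 to 36.3 CPM in DIO and 4.47 to 81.5 CPM in lean epididymal libraries, and their part in the Mmp9 values was not tested.

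Retroperitoneal fat, a second visceral depot behind the abdominal cavity, was the 1 tissue in which Mmp9 passed the 10 CPM filter, and Mmp9 fell there. It passed through its lean libraries (mean 19.5 CPM, against 4.48 CPM in DIO), so the filter favoured a fall. Mmp9 had 3.73, 2.86, 4.74, 8.79 and 2.26 CPM in DIO libraries and 24.5, 13.5, 15.7, 29.0 and 14.7 CPM in lean libraries. Every DIO library was below every lean library, as was true of 6.59% of all genes tested in this depot. The log2 change was -2.19 ± 0.30 (limma, adjusted p = 0.000152), the only fall among the members, and 18.2% of genes tested there were called lower (10% on the deposited scale). Summed over 5 neutrophil markers of 12 written, cells that carry MMP9 in granules, the level was 13.8 to 29.9 CPM in DIO and 5.54 to 8.93 CPM in lean libraries. Taken singly, 1 of the 5 markers was apart upward, beside 28.2% of all genes tested in this depot, and 0 of the 5 passed the 10 CPM filter. Cxcr2 of that list was at 0 in a library of both groups, and S100a9 in a lean one. The markers' part in the Mmp9 result was not tested.

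Timp1 moved the other way in retroperitoneal fat, with 8.55, 22.2, 28.6, 8.88 and 9.89 CPM in DIO libraries and 0.871, 0.720, 1.24, 2.46 and 1.01 CPM in lean libraries. The groups did not overlap. Its mean was under 10 CPM, and with the filter at 1 CPM it was called higher at a log2 change of 2.55 ± 0.34 (limma, adjusted p = 0.000165), as were 19.4% of all genes so tested. Syn1 had 4.76 to 11.2 CPM in DIO and 0.769 to 1.48 CPM in lean libraries.

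Thbs1, Postn and Fbn1 were also called higher in retroperitoneal fat, where 20.1% of genes were called higher (35% on the deposited scale). Thbs1 had 133, 287, 171, 206 and 87.6 CPM in DIO libraries, against 55.2, 20.0, 16.0, 54.5 and 36.1 CPM in lean libraries, and the log2 change was 2.04 ± 0.37 (limma, adjusted p = 0.000965). Postn had 259.8, 357, 175.5, 305 and 225 CPM in DIO libraries, against 122, 110.5, 93.9, 124 and 92.2 CPM in lean libraries, with a log2 change of 0.98 ± 0.19 (limma, adjusted p = 0.00138). Fbn1 had 233, 312, 256, 239 and 257 CPM in DIO libraries, against 175, 136, 102, 202.5 and 174 CPM in lean libraries. None of these 3 genes overlapped between the groups, which held for 28.2% of all genes upward. The Fbn1 change was small, 0.48 ± 0.17 (limma, adjusted p = 0.0475). Its call was lost in edgeR (adjusted p = 0.0550), in a single fit over all libraries (0.0551) and without DIO 3 and lean 2 (0.119). Fn1 was 272 to 605 CPM in DIO and 157 to 464 CPM in lean libraries, which overlapped, and its change of 0.54 ± 0.36 was not called (limma, adjusted p = 0.251).

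**Figure D2:**
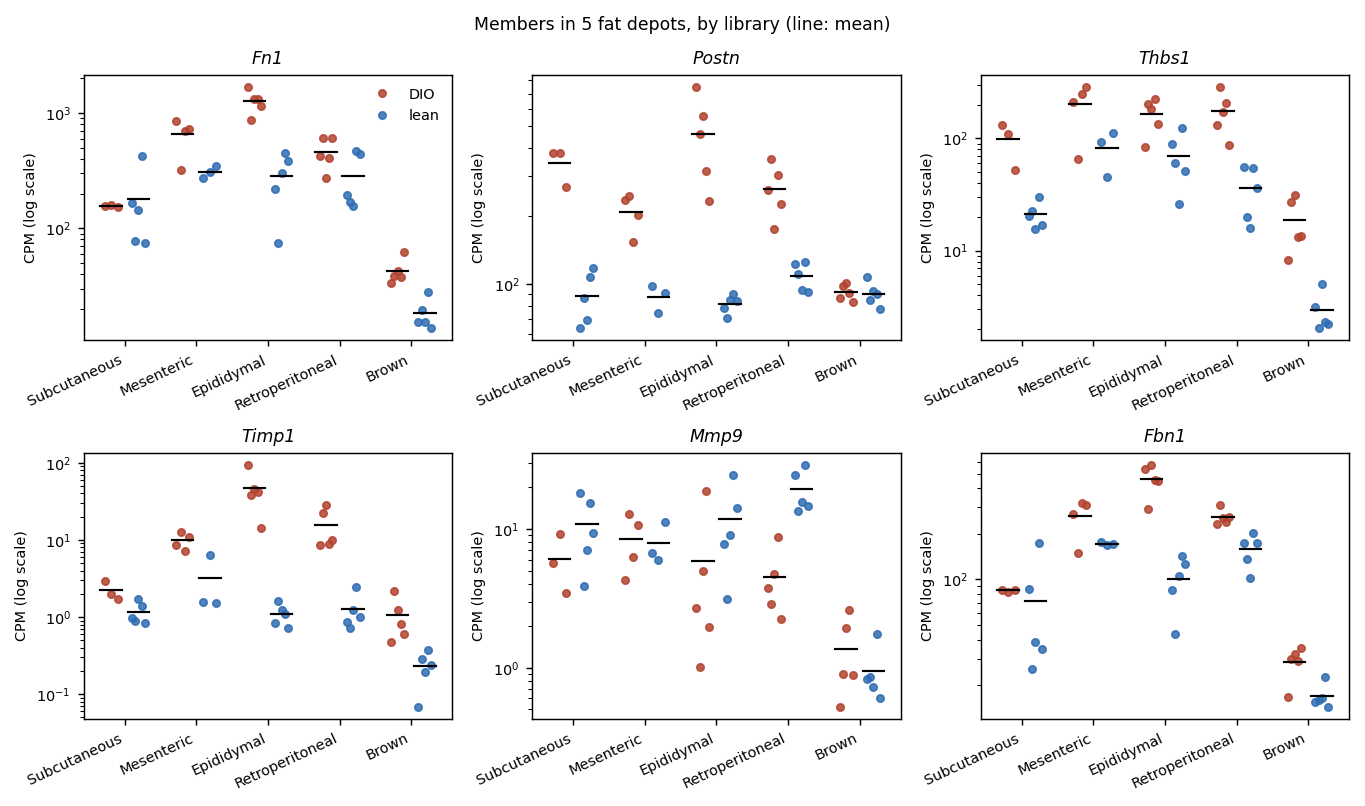
CPM (log axis) of each gene in every library of 5 fat depots, DIO (red, left) and lean (blue, right); the black line is the mean. Timp1 separates the groups in all 5 depots, Postn in the 4 white depots, and Mmp9 lies lower in DIO without overlap in retroperitoneal fat.

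In mesenteric fat, which lies along the gut, Postn was the member whose call did not depend on the scale. Postn had 236, 246, 153 and 202 CPM in DIO libraries, against 97.9, 74.1 and 91.3 CPM in lean libraries, with no overlap and a log2 change of 0.86 ± 0.18 (limma, adjusted p = 0.0143). It was 1 of 4 tested members called higher, against 9.41% of genes (38% on the deposited scale). Fn1 had 856, 323, 702.5 and 726 CPM in DIO libraries, against 273, 307 and 347 CPM in lean libraries. It was called on the deposited scale (0.99, adjusted p = 0.0438) but not after rescaling (0.62 ± 0.35, limma, adjusted p = 0.234).

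The low mesenteric Fn1 value was that of DIO 2, the library with lymphoid Cr2. Without it Fn1 changed by 0.95 ± 0.12 (adjusted p = 0.000624), Thbs1 by 1.32 ± 0.30 (0.0105) and Fbn1 by 0.45 ± 0.09 (0.00465), all called by limma after rescaling, when 23.3% of genes were called higher. Thbs1 had 212, 65.6, 247 and 289.6 CPM in DIO libraries and 92.3, 45.8 and 110.7 CPM in lean libraries. Fbn1 had 269, 149, 321 and 309.7 CPM in DIO libraries and 175, 168 and 172 CPM in lean libraries. For both, DIO 2 was the lowest DIO library and the only one within or below the lean range, and with it neither was called (limma, adjusted p = 0.319 and 0.683), although a single fit over all libraries called Thbs1 (0.0301). Timp1 did not overlap, with 8.64, 12.8, 7.09 and 11.0 CPM in DIO libraries, against 1.55, 6.47 and 1.51 CPM in lean libraries. Non-overlap upward was common in this depot, at 54.1% of genes. Its change was 1.26 ± 0.43 with the filter at 1 CPM (limma, adjusted p = 0.0801 after rescaling and 0.0283 as deposited). Mmp9 was 4.26 to 12.8 CPM in DIO and 5.97 to 11.2 CPM in lean libraries.

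Subcutaneous fat, the depot under the skin, had calls for both matricellular members alone. Postn had 379.9, 379.5 and 268 CPM in DIO libraries, against 63.4, 86.2, 68.7, 107 and 118 CPM in lean libraries. Thbs1 had 133, 110.3 and 52.4 CPM in DIO libraries, against 20.4, 22.7, 15.6, 30.3 and 16.997 CPM in lean libraries. Neither gene overlapped between the groups, a pattern of 20.2% of genes upward. Postn rose by 1.95 ± 0.25 (limma, adjusted p = 0.00693) and Thbs1 by 2.09 ± 0.33 (limma, adjusted p = 0.0109), while 6.37% of genes were called higher (8.83% as deposited).

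Fn1 and Fbn1 showed no call in subcutaneous fat. Fn1 had 155, 160.4 and 153 CPM in DIO libraries and 167, 76.9, 144, 425.5 and 75.0 CPM in lean libraries, so the DIO libraries sat tightly inside a wide lean range. Fbn1 did likewise, with 85.4, 83.0 and 85.3 CPM in DIO libraries and 86.1, 25.8, 38.7, 174 and 34.9 CPM in lean libraries. Timp1 was 1.73 to 2.92 CPM in DIO and 0.845 to 1.70 CPM in lean libraries, apart by little, and was not called with the filter at 1 CPM (0.57 ± 0.20, limma, adjusted p = 0.111). Mmp9 had 5.72, 9.20 and 3.45 CPM in DIO libraries and 18.3, 3.88, 7.06, 15.4 and 9.34 CPM in lean libraries. Without lean 2 and lean 3, the libraries with lymphoid Cr2, Mmp9 passed the filter and was called lower, at -1.23 ± 0.34 (limma, adjusted p = 0.0208), as were 21.9% of genes. These libraries had the lowest lean values of Mmp9. Leaving them out raised the lean mean, which took Mmp9 past the filter and favoured a fall.

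In brown fat, which makes heat, Thbs1, Fn1 and Fbn1 rose and Postn was not called. Thbs1 had 8.27, 26.9, 31.4, 13.3 and 13.6 CPM in DIO libraries, against 3.15, 2.04, 5.02, 2.33 and 2.21 CPM in lean libraries. The groups did not overlap, and the log2 change was 2.16 ± 0.32 (limma, adjusted p = 0.000252). Fn1 had 33.6, 38.5, 42.7, 37.6 and 61.7 CPM in DIO libraries, against 15.3, 19.5, 15.5, 28.1 and 13.6 CPM in lean libraries, also apart, with a change of 1.12 ± 0.19 (limma, adjusted p = 0.000747). Fbn1 was 16.8 to 35.4 CPM in DIO and 14.5 to 22.6 CPM in lean libraries, with overlap, and rose by 0.63 ± 0.17 (limma, adjusted p = 0.00915), though not in a single fit over all libraries (adjusted p = 0.161). Postn averaged 91.7 ± 7.63 CPM in DIO and 90.4 ± 11.0 CPM in lean libraries (SD, n = 5 each), and its change was -0.04 ± 0.07 (limma, adjusted p = 0.637). Of 4 tested members 3 were called higher, against 24.1% of all genes (29% as deposited), and 20.5% of genes did not overlap upward. Of these members Thbs1 passed the 10 CPM filter only through its DIO libraries (mean 18.7 CPM, against 2.95 CPM in lean), so the filter favoured its rise. Timp1 had 0.481 to 2.17 CPM in DIO and 0.0692 to 0.368 CPM in lean libraries, which did not overlap but held as few as 2 reads in a lean library.

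The white depots were compared with each other by an F test of diet by depot across all genes (limma, on the deposited scale). The effect of diet differed between depots for 38.6% of genes. It differed for Timp1 (adjusted p = 0.000183), Postn (0.0182), Fbn1 (0.0210) and Fn1 (0.0363), and was not shown to differ for Thbs1 (0.315). After rescaling, when 33.1% of genes passed, Fn1 no longer did (0.0511) and the other 3 did (Timp1 0.000337, Postn 0.00751, Fbn1 0.0213). On the rescaled scale Fn1 changed by 2.16 in epididymal, 0.54 in retroperitoneal, 0.62 in mesenteric and 0.12 in subcutaneous fat. For Fbn1 the same values were 2.07, 0.48, 0.18 and 0.59, and for Postn 2.19, 0.98, 0.86 and 1.95. Postn was thus about as far up in subcutaneous as in epididymal fat, whereas the change in Fbn1 and Fn1 was greatest in epididymal fat. The Fn1 test was lost without some single libraries (called in 26 of 35 such fits), and the Postn and Fbn1 tests were called in all 35. Timp1 was called in the 33 of them in which it passed the filter. It passed through its DIO epididymal libraries (mean 46.8 CPM, against 15.6 CPM in DIO retroperitoneal fat). The filter thus favoured a depot difference for Timp1, and these calls add little to its test.

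**Figure D3:**
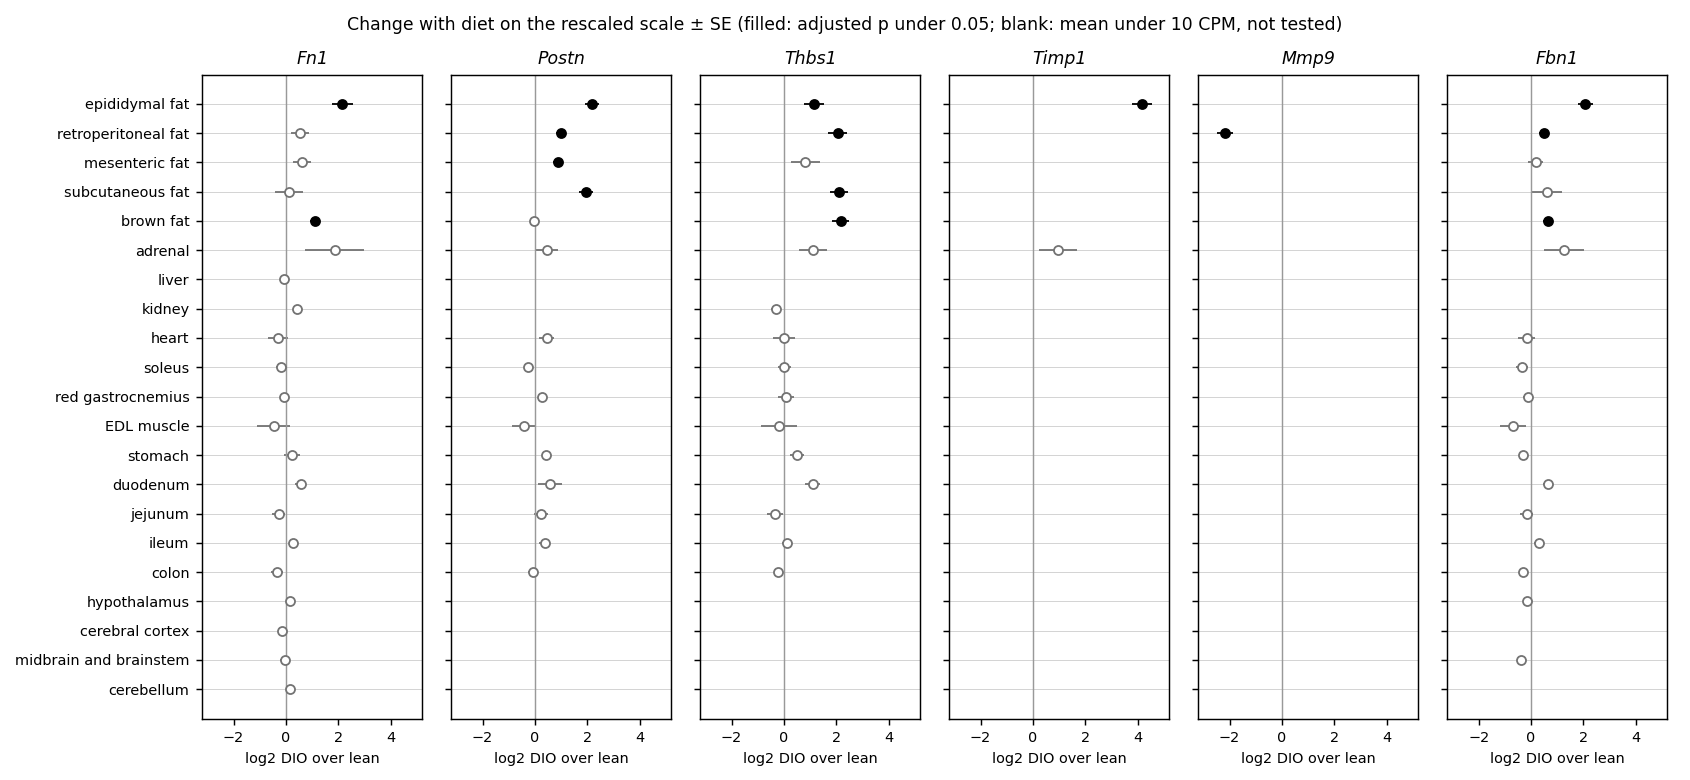
Log2 of DIO over lean ± standard error on the rescaled scale for each gene and tissue with a mean of at least 10 CPM; filled points have an adjusted p under 0.05 and blanks were not tested. All filled points lie in fat, 14 to the right of 0 and 1, Mmp9 in retroperitoneal fat, to the left.

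The balance of inhibitor to protease was read within each library as the ratio of Timp1 to Mmp9 per kilobase of exon, which no rescaling can alter. In epididymal fat it was 137.9, 149.7, 36.9, 8.87 and 29.1 in DIO libraries, against 0.431, 2.05, 0.542, 0.176 and 0.203 in lean libraries. In retroperitoneal fat it was 9.15, 30.9, 24.0, 4.03 and 17.4 in DIO libraries, against 0.142, 0.213, 0.315, 0.339 and 0.275 in lean libraries. The groups were apart in both depots, and all lean retroperitoneal libraries were below 1. Mesenteric fat had 8.08, 3.99, 4.47 and 4.09 in DIO libraries and 0.918, 4.32 and 0.537 in lean libraries, where lean 2 reached the DIO range. Subcutaneous fat overlapped, with 0.874 to 2.04 in DIO and 0.210 to 0.960 in lean libraries. Brown fat also overlapped, at 1.24 to 9.61 in DIO and 0.332 to 1.59 in lean libraries. A ratio shows unequal change and not which gene moved, and these mRNA levels say nothing of protease activity.

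**Figure D4:**
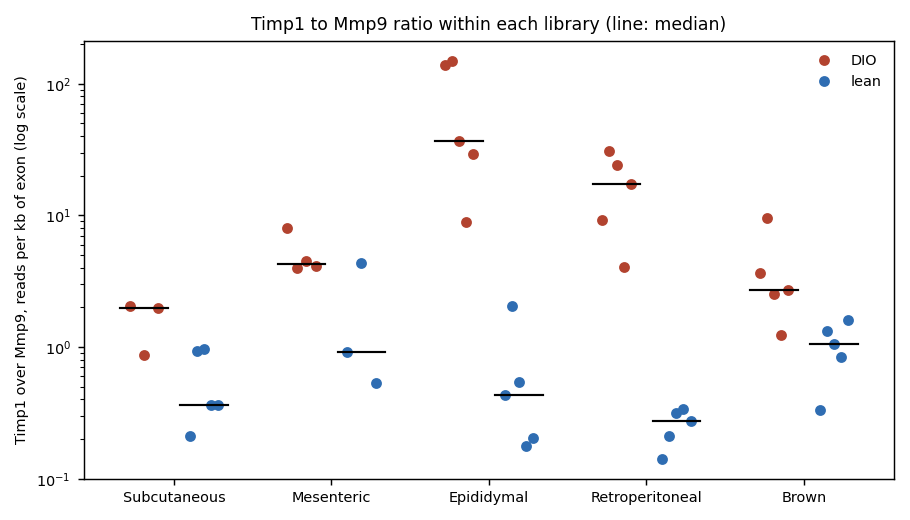
Ratio of Timp1 to Mmp9 in reads per kilobase of exon (log axis) in each library of 5 fat depots, DIO (red, left) and lean (blue, right); the line is the median. The DIO medians are 36.9 in epididymal and 17.4 in retroperitoneal fat, against lean medians of 0.431 and 0.275.

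Cell-type markers moved in the same depots. Summed over 9 macrophage markers of 15 written, the level was 1974 to 5687 CPM in DIO and 167 to 246 CPM in lean epididymal libraries, and all 9 markers were apart. It was 1458 to 4777 CPM in DIO and 136 to 239 CPM in lean retroperitoneal libraries, with 9 of 9 apart. Mesenteric fat had 827 to 1238 CPM in DIO and 139.7 to 200.1 CPM in lean libraries, again 9 of 9. Subcutaneous fat had 307 to 454 CPM in DIO and 117 to 801 CPM in lean libraries, with 1 of 9 apart, and brown fat 31.1 to 98.1 CPM in DIO and 18.3 to 30.3 CPM in lean libraries, with 4 of 9. None of the 9 was at 0 in any library of these depots except Atp6v0d2 in lean brown fat. Of all genes tested, 29% were apart upward in epididymal, 28.2% in retroperitoneal, 54.1% in mesenteric, 20.2% in subcutaneous and 20.5% in brown fat.

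Fibroblast markers, 7 of 14 written, summed to 5191 to 6359 CPM in DIO and 1483 to 2518 CPM in lean epididymal libraries, and to 5673 to 5850 CPM in DIO and 1167 to 3437 CPM in lean subcutaneous libraries. They summed to 4024 to 8925 CPM in DIO and 2028 to 3312 CPM in lean retroperitoneal libraries, to 2550 to 4986 CPM in DIO and 1464 to 1635 CPM in lean mesenteric libraries, and to 1037 to 1203 CPM in DIO and 332 to 433 CPM in lean brown fat libraries. No sum overlapped between the diets in these 5 depots, and none of the 7 was at 0. Of the 7 markers, 4 were apart in epididymal and in retroperitoneal fat, 5 in mesenteric, and 3 in subcutaneous and in brown fat. The shares of all genes apart upward, given above for each depot, stand beside these counts, with 54.1% in mesenteric fat. After rescaling 5 were called higher in epididymal, retroperitoneal and brown fat, 2 in mesenteric and 1 in subcutaneous fat. Of all genes, 27.3%, 20.1%, 24.1%, 9.41% and 6.37% were called higher in these depots, in that order. Col3a1, on this list and on the collagen list below, averaged 2991 CPM in DIO and 593 CPM in lean epididymal libraries. Adipocyte markers, 3 of 9 written, were lower in DIO in the 3 visceral depots: they summed to 3946 to 11018 CPM in DIO and 14355 to 20473 CPM in lean epididymal libraries, with all 3 apart, to 5960 to 11361 CPM in DIO and 14098 to 30004 CPM in lean retroperitoneal libraries, with 3 apart, and to 7396 to 14629 CPM in DIO and 16280 to 18854 CPM in lean mesenteric libraries, with 2 apart. Their sums overlapped in subcutaneous fat (16162 to 18765 CPM in DIO and 10354 to 26419 CPM in lean) and in brown fat (10215 to 11591 CPM in DIO and 9270 to 11873 CPM in lean), with 1 of 3 apart in each. Of all genes tested in retroperitoneal fat, 6.59% were apart downward. The part of these cell types in the results for the members was not tested.

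Related genes from lists of the same pathways are given as counts after rescaling, without the members. The share of all genes called higher was 27.3% in epididymal, 20.1% in retroperitoneal, 24.1% in brown, 9.41% in mesenteric and 6.37% in subcutaneous fat. On the deposited scale these shares were 36.3%, 35%, 29%, 38% and 8.83%, in that order. Called lower after rescaling were 18.2% of genes in retroperitoneal fat. In epididymal fat 1166 of 2155 genes were called in either direction on the deposited scale, 782 of them higher and the rest lower. Of the other matricellular genes, 3 of 3 tested rose in epididymal fat: Ccn5 by 2.59 ± 0.27, Thbs3 by 1.05 ± 0.19 and Ccn1 by 0.93 ± 0.27. Ccn5 and Ccn1 are secreted CCN proteins and Thbs3 is a thrombospondin. Ccn5 passed the 10 CPM filter there only through its DIO libraries (mean 28.8 CPM, against 3.67 CPM in lean), so the filter favoured its rise. In retroperitoneal fat 2 of 3 rose, in subcutaneous 1 of 2, in brown fat 1 of 1 and in mesenteric fat 0 of 3 (1 of 3 on the deposited scale). The filter likewise favoured Ccn5 in retroperitoneal fat (mean 21.2 CPM in DIO and 2.94 CPM in lean). It also favoured Ccn1 in brown fat (34.4 CPM in DIO and 8.69 CPM in lean). The whole list, members included, had a median log2 change of 1.14 in epididymal fat, against -0.01 over all genes. Of the other fibronectin and microfibril genes 0 of 2 rose in epididymal fat and 1 fell, Adamtsl4 by 0.46 on the log2 scale, a call that the deposited scale did not give. In retroperitoneal, mesenteric and subcutaneous fat 0 of 2 rose (1 of 2 in retroperitoneal fat on the deposited scale). In brown fat the 1 tested, Tgm2, rose by 0.56 ± 0.07, and Tgm2 also rose in liver, by 0.56 ± 0.15.

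Matrix receptors of the integrin family rose in 4 of 5 tested cases in both epididymal and retroperitoneal fat, against 27.3% and 20.1% of all genes. In mesenteric fat 2 of 5 rose and in brown fat 2 of 3. Cd44, a hyaluronan receptor placed on the same list, averaged 414 CPM in DIO and 20.8 CPM in lean epididymal libraries, a change of 3.96 ± 0.28. Itga4, the fibronectin-binding integrin chain of leukocytes, changed by 2.71 ± 0.23, and Itgav, whose pairs bind fibronectin, periostin and fibrillin, by 1.54 ± 0.18. In retroperitoneal fat Itga4 passed the 10 CPM filter only through its DIO libraries (mean 75.0 CPM, against 9.89 CPM in lean), which favoured a rise. In subcutaneous fat 2 of 5 rose, Itgav by 0.38 ± 0.09 and Itga6, a laminin receptor chain, by 1.10 ± 0.28.

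Other matrix proteases gave few calls. In epididymal fat 1 of 4 tested rose, Fap, a serine protease of activated fibroblasts, by 0.90 ± 0.16, and the median of the list was 0.02. Fap passed the 10 CPM filter there only through its DIO libraries (mean 19.5 CPM, against 8.74 CPM in lean), which favoured a rise. In retroperitoneal fat 0 of the 4 proteases other than Mmp9 were called after rescaling, whereas 2 rose on the deposited scale, Fap by 0.60 ± 0.17 and Adam23 by 0.50 ± 0.17. Protease inhibitors were mixed: in epididymal fat Serping1 rose by 1.75 ± 0.24 and Serpinb8 by 1.12 ± 0.18, while Serpine2, an inhibitor of thrombin and plasminogen activators, fell by 0.77 on the log2 scale. Retroperitoneal fat gave the same 3 calls, with Serping1 at 1.34 ± 0.25, Serpinb8 at 0.85 ± 0.15 and Serpine2 at -0.57 ± 0.19. Serpinb8 passed the filter there only through its DIO libraries (mean 21.9 CPM, against 9.70 CPM in lean), which favoured a rise. On the deposited scale 3 of the 4 tested inhibitors other than Timp1 rose and 1 fell in epididymal fat, and 2 of 4 rose and 0 fell in retroperitoneal fat.

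Fibrillar and type VI collagens rose in 4 of 4 tested cases in epididymal and retroperitoneal fat, 3 of 4 in brown fat, and 1 of 4 in mesenteric and in subcutaneous fat. On the deposited scale 4 of 4 rose in mesenteric and 2 of 4 in subcutaneous fat, and the other 3 depots had the same counts. Col3a1 averaged 2991 CPM in DIO and 593 CPM in lean epididymal libraries, a change of 2.13 ± 0.20, and Col6a3 changed by 2.09 ± 0.20 there and by 1.83 ± 0.38 in subcutaneous fat. TGF-beta ligands, receptors and targets rose in 2 of 6 and fell in 1 of 6 tested cases in epididymal fat, where the median of the list was 0.06 and none fell on the deposited scale. Pmepa1, a target of TGF-beta, averaged 453 CPM in DIO and 98.96 CPM in lean brown fat, a change of 2.14 ± 0.12. In subcutaneous fat it averaged 673 CPM in DIO and 168 CPM in lean libraries, a change of 2.12 ± 0.44.

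Outside fat, liver kept its high Fn1 with both diets: 1509, 1677, 1527, 1549 and 1363 CPM in DIO libraries, against 1284, 1839, 1545, 1449 and 1342 CPM in lean libraries. The ranges lay over each other and the change was -0.06 ± 0.10 (limma, adjusted p = 0.732). Postn was under the filter in liver, with 9.58, 12.1, 18.1, 12.4 and 10.3 CPM in DIO libraries and 6.27, 6.95, 3.97, 6.59 and 4.45 CPM in lean libraries. It did not overlap, as 13.4% of genes tested in liver upward, and with the filter at 1 CPM it was called higher by 0.93 ± 0.17 (limma, adjusted p = 0.00237). Fbn1 in liver had 3.84, 4.55, 9.91, 5.22 and 4.35 CPM in DIO libraries and 2.97, 2.97, 3.14, 3.25 and 2.60 CPM in lean libraries, and was likewise called at 0.58 ± 0.17 (limma, adjusted p = 0.0350), when 11.3% of genes were called higher. Both were highest in DIO 3, the library in which 7 fibroblast markers summed to 267 CPM, against 99.6 to 143 CPM in the other DIO and 66.5 to 99.2 CPM in lean libraries. The markers' part in these liver results was not tested. Among collagens in liver Col3a1 rose by 1.199 ± 0.29, and Serpine2 fell by 1.01 on the log2 scale. Serpine2 passed the 10 CPM filter through its lean libraries (mean 16.5 CPM, against 8.21 CPM in DIO), which favoured a fall. A collagen went the other way in kidney, where Col5a2 averaged 14.2 CPM in DIO and 25.9 CPM in lean libraries. Its change was -0.82 ± 0.11 (limma, adjusted p = 0.0131).

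In the adrenal no member was called within the tissue, and Fn1 was highest in DIO 1 and DIO 2, which lack Hsd3b1. Fn1 had 1366 and 1656 CPM in DIO 1 and DIO 2, against 95.4, 141 and 47.4 CPM in the other DIO libraries. Lean libraries had 82.5, 191, 39.2, 53.6 and 38.2 CPM. Hepatocyte markers (7 of 10 written) summed to 9868 CPM in DIO 1 and 40.7 CPM in DIO 2, and fibroblast markers to 3675 and 7857 CPM there, against at most 1538 CPM in the other adrenal libraries. Timp1 behaved otherwise, at 12.5, 37.6, 30.0, 41.4 and 35.4 CPM in DIO libraries, against 0.451, 17.2, 24.9, 30.7 and 33.7 CPM in lean libraries, with its lowest value in lean 1, which lacks Hsd3b1. Without these 3 libraries the change of Timp1 was 0.26 ± 0.19 (limma, adjusted p = 0.572) and that of Fn1 0.27 ± 0.67 (adjusted p = 0.886). With them, a single fit over all libraries called Fn1, Fbn1, Timp1 and Thbs1 higher (limma, adjusted p = 3.73e-05, 0.000596, 0.00729 and 0.0102). Syn1 was also present in the adrenal, at 4.15 to 30.8 CPM in DIO and 0.361 to 43.6 CPM in lean libraries, with lean 1 lowest.

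The intestine gave 1 difference between segments, for Thbs1 (F test of diet by segment, limma, adjusted p = 0.0208), where 16.1% of genes passed. In duodenum Thbs1 had 60.5, 95.8, 104.6, 78.8 and 58.1 CPM in DIO libraries and 16.0, 31.9, 75.9, 36.8 and 27.2 CPM in lean libraries, a change of 1.10 ± 0.29 that was not called (limma, adjusted p = 0.153; 0.0224 in a single fit over all libraries). Lean 3 was the highest lean library and lay within the DIO range. Without it Thbs1, Fbn1 and Fn1 were called higher on the deposited scale (limma, adjusted p = 0.00426, 0.00426 and 0.0163), but so were 30.4% of all genes tested, against 0.289% with it. In jejunum, ileum and colon the rescaled changes of Thbs1 were -0.35 ± 0.30, 0.10 ± 0.18 and -0.22 ± 0.11. The segment test for Thbs1 was lost without duodenum DIO 2, DIO 3 or lean 1, and Fn1 and Fbn1 did not pass it (0.0584 and 0.0619).

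Skeletal muscle, heart, kidney, stomach and brain had no called member, and diet by tissue was not called for any member among skeletal muscles (adjusted p = 0.9993 for each of 4), nor for Fn1 or Fbn1 among brain regions. In EDL muscle 1 library stood apart: DIO 3 had 121 CPM of Fn1, 36.9 CPM of Thbs1 and 41.3 CPM of Fbn1, against 8.21 to 27.8, 2.50 to 8.18 and 4.53 to 17.6 CPM in the other DIO libraries. Lean libraries had 17.3 to 56.6 CPM of Fn1, 2.52 to 24.8 CPM of Thbs1 and 9.96 to 32.7 CPM of Fbn1. Fibroblast markers in DIO 3 summed to 981 CPM, against 132 to 337 CPM in the other DIO and 194 to 385 CPM in lean libraries, and their part was not tested. Mmp9 in EDL had 3.31, 2.96, 1.51, 9.80 and 0.863 CPM in DIO libraries and 0.492, 21.4, 37.7 and 1.72 CPM in lean libraries. Neutrophil markers summed to 97.6 CPM in DIO 4, the highest DIO library for Mmp9, and to 102 and 544 CPM in lean 2 and lean 3, the highest lean ones, against 1.78 to 21.6 CPM in all other EDL libraries. Their part in the Mmp9 values was not tested.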

How the data were processed

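Values were CPM per gene and library, deposited as a single table by the authors. Per the labels, libraries were made with a stranded mRNA kit and sequenced as paired reads; per the submitters' processing notes FastQC, STAR, HTSeq and DESeq2 were used, with no version, build or setting named in what was used. Of 205 columns 1 matched no sample. Of 13154 genes 1 was incomplete and left out. The table covered chromosomes 1, 2, 3 and X and the start of chromosome 4, or 23.7% of annotated genes; other genes were not analysed here. CPM steps gave whole reads for 100% of values (within 0.001), so edgeR 4.0.16 and DESeq2 1.42.0 were run on the recovered reads as alternatives; in epididymal fat edgeR called 1173 of 2155 genes and limma 1166. In each of these libraries 3 reads came to between 0.0231 and 0.456 CPM. Of 398 replicate pairs none was a duplicate (chi-square per degree of freedom at least 3.48).

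DIO and lean were compared in each tissue by limma 3.58.1 (trend option, log2 of CPM + 1). Genes averaging 10 CPM or more in that tissue were tested, and 0.05 was the threshold for the adjusted p. Interactions used an F test. The design had set the deposited scale as the first choice; rescaled values are printed because medians moved. Alternatives were a pseudocount of 5, a filter of 1 CPM, no filter, median-of-ratios rescaling, array weights, a joint fit of every library, each library left out and 10 doubted libraries left out; the pairings of rescaling with the 1 CPM filter and with the doubted libraries were chosen after seeing the data. The tests were checked on simulated data. Named genes were the 6 members, up to 3 others per list and tissue with the lowest adjusted p, and 3 most alike per member. The members and the lists were chosen with earlier results of these data known. Gene positions were matched by identifier to GENCODE M21. Software was R 4.3.3 and Python 3.11.15.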

Additional observations from a re-analysis of the deposited data

Results flagged for a closer look

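Single libraries stood far from the rest of their group in 15 of 209 groups with a mean of at least 1 CPM, where chance alone gives about 1 in 20. Fibronectin Fn1 was apart in subcutaneous lean 4 (425.5 CPM), adrenal lean 2 (191 CPM) and EDL DIO 3 (121 CPM). Thbs1 was apart in the same EDL library (36.9 CPM), in heart lean 3 (21.3 CPM) and in liver DIO 3 (9.06 CPM). Postn was apart in heart lean 3 (75.8 CPM), hypothalamus lean 2 (10.1 CPM) and cerebellum DIO 1 (3.35 CPM). Fbn1 was apart in adrenal lean 2 (99.2 CPM), liver DIO 3 (9.91 CPM) and brown fat lean 4 (22.6 CPM), and was lowest by far in red gastrocnemius DIO 1 (36.8 CPM). Mmp9 was apart in epididymal DIO 4 (18.7 CPM) and EDL DIO 4 (9.80 CPM). Liver DIO 3, heart lean 3, EDL DIO 3 and adrenal lean 2 were each far out for 2 members.

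In 5 cases results differed between related tissues in limma's F test for a diet effect that depends on tissue. The diet effect differed between white fat depots for Timp1 (adjusted p = 0.000183), Postn (0.0182), Fbn1 (0.0210) and Fn1 (0.0363), and between intestinal segments for Thbs1 (0.0208). Timp1 passed the filter for that test through its DIO epididymal libraries, which favoured a difference.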

How the results depend on the processing

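The calls in white fat were steady in number: 12 pairs of gene and depot were higher on the deposited scale, 10 to 15 under the other settings and 11 to 14 when single libraries were left out. Outside white fat 3 pairs were higher. That number was 5 with a filter of 1 CPM (with or without rescaling), with no filter and by DESeq2, 7 in a single fit and 13 with array weights, and 2 to 6 when single libraries were left out (6 without duodenum lean 3). The 1 pair that was lower became 2 without the doubted libraries, with or without rescaling, and stayed 1 to 1 when single libraries were left out. Array weights turned 2 heart results round, Fn1 to 0.89 and Fbn1 to 0.81; the cause was not tested. Fn1 in mesenteric fat was lost without any one of 6 of its 7 libraries (adjusted p of at most 0.132 on the deposited scale), and was called without DIO 2. Fn1 in retroperitoneal fat was called on the deposited scale without DIO 3, lean 4 or lean 5. Of the depot differences 4 members passed, and 2 to 4 did when single libraries were left out (2 without epididymal DIO 1 or DIO 3, where Timp1 was not tested). Of the segment differences 1 passed, and 0 to 3 when single libraries were left out (0 without duodenum DIO 2, DIO 3 or lean 1). Skeletal muscle and brain stayed at 0 to 0. Over all genes, limma called 1002 in mesenteric fat and edgeR 557, and limma called 274 in subcutaneous fat and DESeq2 551. No paired analysis was possible because replicate numbers were given in accession order and pair no samples. Low levels limit Timp1 and Mmp9, which were tested in 2 tissues and 1 tissue, and a lean brown fat library held 2 reads of Timp1.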
